A study of Mus musculus with 35 samples.

Results

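The genes described here encode collagens, laminins, integrins, cadherins and protocadherins, the structural proteins of the extracellular matrix and the receptors that hold cells to it and to each other. They were taken by name: every probe of the normalized table of ganglia and small tumors with a single gene symbol beginning with Col and a digit, Lama, Lamb, Lamc, Itga, Itgb, Cdh and a digit, or Pcdh. This gave 53 probes for 53 genes, of 12688 probes in that table, 8354 of which carry a single symbol. They comprised 21 collagens, 4 laminins, 7 integrin subunits, 5 cadherins, 13 protocadherins and 3 genes that the name rule catches although they are not integrins (Itgb1bp1, Itgb1bp2 and Eif6, which the table lists under its older name Itgb4bp). Lamb1 is listed there as Lamb1-1. The same probes were read in the 24 tumors of the series' other array set. The rule used names and no levels, but it was set with earlier results of these data known.

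Collagens are triple-helical matrix proteins; types I, II, III, V and XI assemble into fibrils, whereas type IV forms the network of basement membranes together with laminins, which are trimers of an alpha, a beta and a gamma chain. Integrins are alpha-beta receptor pairs that bind these proteins at the cell surface. Classical cadherins join like cells through calcium-dependent contacts, and the clustered protocadherins give single neurons their surface identity. In sympathetic ganglia, Schwann cells and satellite glia ensheathe neurons inside a basement membrane, and fibroblasts and vessels add the fibrillar matrix.

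All mice were homozygous for the TH-MYCN transgene, in which the tyrosine hydroxylase promoter drives MYCN in sympathetic neuroblasts, and animals without the transgene were not analysed here. Set 1 held 24 neuroblastomas, 6 in each of 4 size classes: small (0.05 to 0.1 g, mice 28 to 42 days old), medium (0.24 to 0.46 g, 35 to 42 days), large (0.76 to 1.3 g, 35 to 46 days) and very large (1.6 to 3 g, 35 to 45 days). Set 2 held 11 arrays: sympathetic ganglia with hyperplastic neuroblast foci from newborn mice at day 0 (5 arrays), from mice at day 7 (2 arrays) and at day 14 (2 arrays), and 2 small tumors (0.08 g at 42 days and 0.1 g at 28 days). By specimen name these 2 tumors are the ones that set 1 holds as small replicates 6 and 3, so the sets are not independent there. Tissue and age differ together between ganglia and tumors and cannot be told apart. Nothing in the labels says whether a ganglion array is 1 animal or a pool, so p-values measure the spread between these specimens.

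Levels below are log2 normalized intensities of a single-colour oligonucleotide array. They can be compared between arrays of a set for one probe, not between probes and not between sets. Values under the 1st percentile of a set were raised to it (log2 7.39 in set 1 and 9.78 in set 2). No member lay at that floor in set 1; 6 did on 1 to 3 arrays of set 2. The 10 noradrenergic markers used (Th, Dbh, Phox2a, Chga, Chgb and others) had mean levels with a median percentile of 98.0 among probes of set 1 and 93 in set 2. Dbh was the lowest of them, at percentile 77.9 and 59.8, and 8 and 7 of the 10 lay above percentile 90. The summed level of these markers ran from 22.80 to 23.31 at day 0 and from 22.11 to 22.18 in the set 2 tumors. A summed level is the log2 of the summed intensities of a list, in which the brightest probes weigh most. Day 0 replicates 1 and 2 carry specimen numbers from a different run than replicates 3 to 5. The labels do not call these runs batches, but some members differed between them, so values against each run alone are given where they ended a call described here, and for some members whose direction they turned.

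Relative to day 0 ganglia, the small tumors had lower levels of most collagens, laminins, cadherins and protocadherins that differed at all. Of the 53 members 4 were higher and 22 lower (limma, Benjamini-Hochberg adjusted p under 0.05), that is 49.1%, where 37.3% of all probes passed (18.4% higher and 18.9% lower). The median change was -0.45 over the members and 0.01 over all probes. In whole-tissue RNA, fewer cells of a type and less RNA per cell cannot be told apart. The 2 tumors lay above all 5 day 0 arrays for 7 members and below all of them for 24, against 24.9% and 24% of all probes. Relative to day 14 ganglia, 3 members were higher and 16 lower (35.8%, against 39.7% of all probes, 19.9% in each direction). Leaving out any single day 14 or tumor array lowered this count. The share of members called in either direction is not above that of all probes. Lower calls outnumbered higher ones among the members, whereas over all probes the directions were even.

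Within the ganglia, fewer members moved. From day 0 to day 14, 3 rose and 4 fell (13.2%, against 10.2% of all probes, 5.56% higher and 4.63% lower). The count was 4 without day 0 replicate 3, 3 without day 14 replicate 1 and 1 without day 14 replicate 2. From day 0 to day 7 only Col15a1 passed (1.89% of members, against 1.99% of all probes), with 11 members at an unadjusted p under 0.05. The count of adjusted calls was 6 without day 0 replicate 1 and 0 without either day 7 replicate. Against day 0 replicates 3 to 5 alone, 16 members passed at day 7 and 13 at day 14, where 24.8% and 27.6% of all probes did. Against replicates 1 and 2 alone, 1 and 9 passed, where 2.44% and 10.7% of all probes did. An F test over the 4 stages passed for 25 members (47.2%, against 41.9% of all probes).

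**Figure D1:**
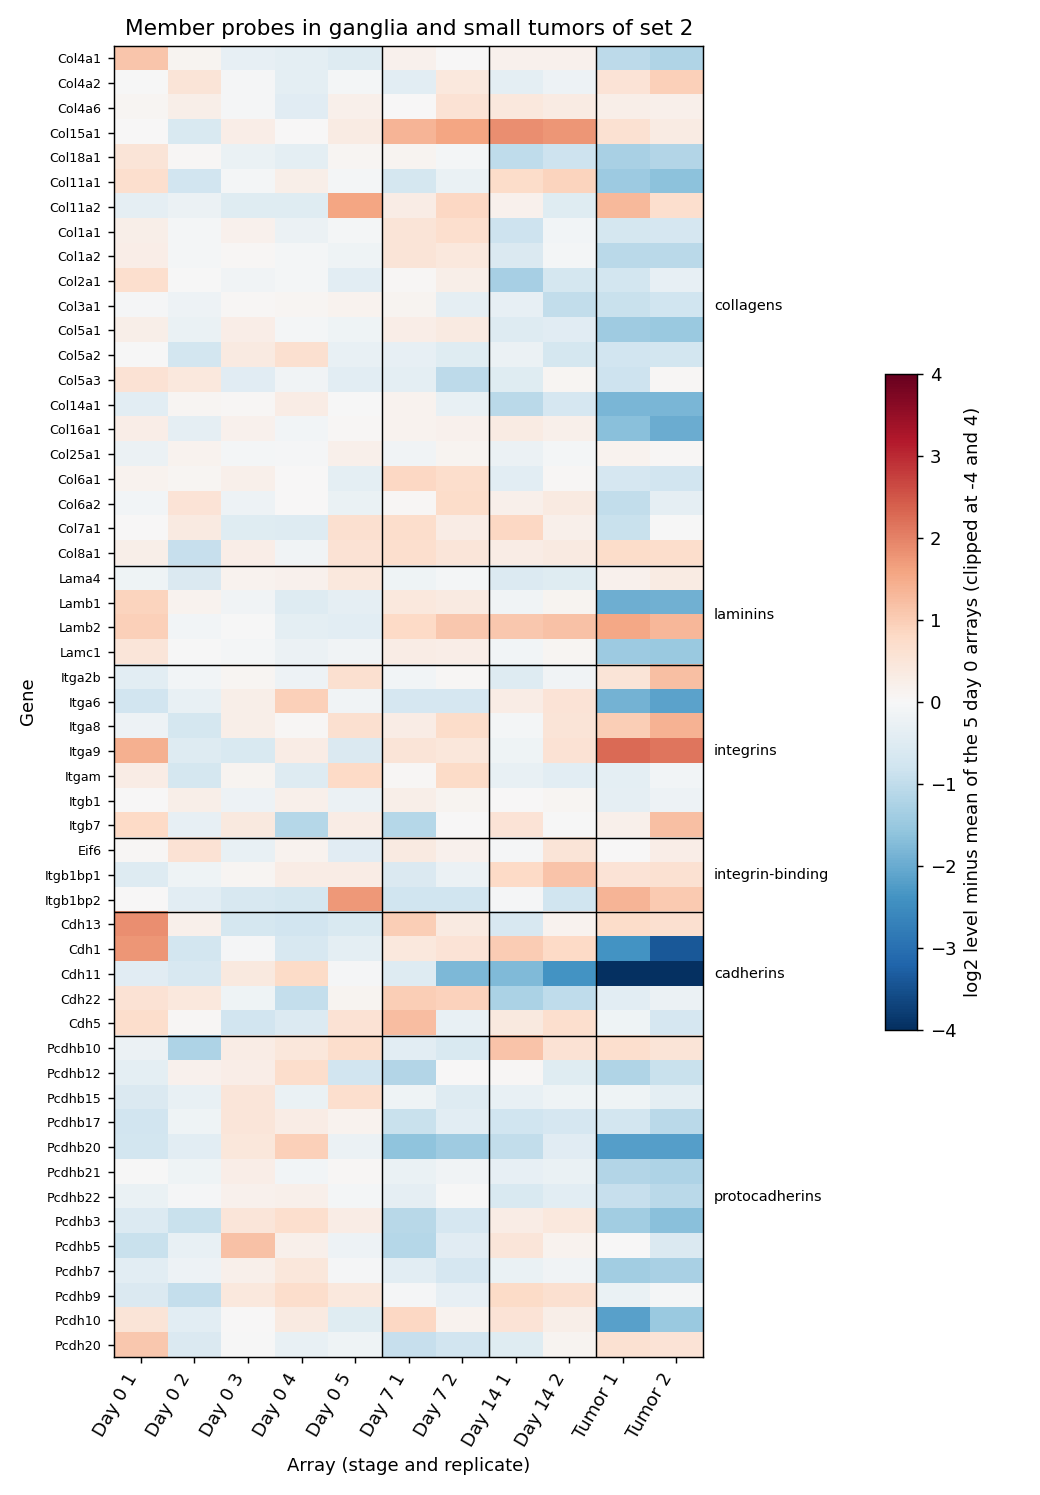
Levels of the 53 member probes (rows, by family) in the 11 arrays of set 2 (columns), as the log2 level minus the mean of the 5 day 0 arrays; red is higher and blue lower, and colours stop at -4 and 4. Tumor columns are blue over much of the collagen and protocadherin blocks, Col15a1 is red at days 7 and 14, and Cdh11 is the darkest blue row.

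Basement membrane genes split in direction. In the tumors Col4a1, Lamb1, Lamc1 and Col18a1 were lower and Col4a2 and Lamb2 higher than in day 0 ganglia. Among the 5 basement membrane collagens and 4 laminins, 2 rose, 4 fell and 3 (Col4a6, Col15a1 and Lama4) did not pass. The shares of all probes were 18.4% higher and 18.9% lower. Col4a1 and Col4a2 encode the chains of the most widespread type IV collagen trimer and lie head to head on chromosome 8. The windows around their start sites are shown because these neighbours went in opposite directions. The Col4a1 call was lost in 2 of 14 alternative fits and that of Col4a2 in 10, though neither direction turned. The windows of Lamb1 and Lamb2, alternative beta chains of laminin, are shown because these genes also went in opposite directions. Each window of 300 bases spans the annotated start, most of it upstream (RefSeq, GRCm38.p6); this source matched 29 of the 53 members, not Lamc1. Capitals mark GGGCGG (GC box) or CCAAT on either strand. The Col4a1 window is chr8:11312777-11313076 on the minus strand, that of Col4a2 chr8:11312555-11312854 on the plus strand, that of Lamb1 chr12:31265043-31265342 on the plus strand, and that of Lamb2 chr9:108479612-108479911 on the plus strand.
Col4a1: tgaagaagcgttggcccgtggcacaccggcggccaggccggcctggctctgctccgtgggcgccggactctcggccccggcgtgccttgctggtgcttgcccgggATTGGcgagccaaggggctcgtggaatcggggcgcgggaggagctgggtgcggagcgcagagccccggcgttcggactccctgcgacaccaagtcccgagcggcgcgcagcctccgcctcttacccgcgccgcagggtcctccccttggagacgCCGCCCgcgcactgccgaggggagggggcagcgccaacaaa
Col4a2: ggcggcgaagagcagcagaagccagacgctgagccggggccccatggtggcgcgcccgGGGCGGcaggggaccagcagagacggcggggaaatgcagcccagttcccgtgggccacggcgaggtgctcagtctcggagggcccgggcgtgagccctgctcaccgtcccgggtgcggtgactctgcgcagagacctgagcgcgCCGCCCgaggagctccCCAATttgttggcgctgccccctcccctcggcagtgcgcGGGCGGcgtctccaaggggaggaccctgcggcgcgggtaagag
Lamb1: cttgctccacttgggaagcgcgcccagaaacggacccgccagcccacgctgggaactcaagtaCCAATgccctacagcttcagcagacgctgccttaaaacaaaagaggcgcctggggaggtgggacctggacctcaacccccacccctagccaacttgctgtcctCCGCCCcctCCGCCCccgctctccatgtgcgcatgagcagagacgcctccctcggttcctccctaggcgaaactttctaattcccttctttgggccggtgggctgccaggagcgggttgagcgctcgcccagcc
Lamb2: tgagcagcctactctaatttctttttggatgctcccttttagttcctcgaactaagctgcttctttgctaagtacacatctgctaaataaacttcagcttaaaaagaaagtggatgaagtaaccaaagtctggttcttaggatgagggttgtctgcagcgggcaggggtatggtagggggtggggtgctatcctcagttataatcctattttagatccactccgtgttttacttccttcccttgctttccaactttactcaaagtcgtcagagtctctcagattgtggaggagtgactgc

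The Col4a1 and Col4a2 windows share 78 bases, read from opposite strands, so part of each sequence is the reverse complement of the other. The only GGGCGG of the Col4a1 window lies in these bases. It is the same site as the last one marked in the Col4a2 window, so the counts below include it for both genes. GGGCGG occurred 1 time in the Col4a1 window, 3 times in that of Col4a2 and 2 times in that of Lamb1, and CCAAT 1 time in each of these. The Lamb2 window held neither, and none of the 4 held TATAAA; the searched motifs do not overlap one another here. Lamb2 also stood apart in base composition, with 44% G and C against 74% for Col4a1, 73.7% for Col4a2 and 63.7% for Lamb1. Over all 32851 windows of the table, 35.7% held GGGCGG, 37.4% CCAAT and 13.6% TATAAA, and of the 31 windows of the matched members 20, 12 and 2 did. These are descriptions of sequence only.

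Col4a1 levels were 18.35, 17.35, 16.92, 16.84 and 16.74 at day 0, 17.40 and 17.27 at day 7, 17.41 and 17.40 at day 14, and 16.21 and 16.05 in the tumors. Both tumors lay below all 9 ganglia, and day 0 replicate 1 lay above every other array. The tumor level was -1.11 (SE 0.34, adjusted p = 0.0221) against day 0 and -1.28 (SE 0.41, adjusted p = 0.0257) against day 14. The change was -1.72 against day 0 replicates 1 and 2 and -0.71 against replicates 3 to 5, past the threshold each time; with tumor replicate 1 or 2 left out the adjusted p against day 0 was 0.0990 or 0.148. Against day 14 it was 0.0837 to 0.118 with either tumor or either day 14 array left out. Col4a2 levels were 15.37, 15.89, 15.33, 14.98 and 15.31 at day 0, 14.94 and 15.79 at day 7, 14.97 and 15.16 at day 14, and 15.92 and 16.33 in the tumors. The tumors were above all ganglia, the first only just above day 0 replicate 2. The change was 0.75 (SE 0.27, adjusted p = 0.0465) against day 0 and 1.06 (SE 0.33, adjusted p = 0.0208) against day 14, and the first call was lost in 10 of 14 alternatives, among them day 0 replicates 1 and 2 alone (0.50), the removal of day 0 replicate 1, 3, 4 or 5 (adjusted p 0.0545 to 0.0759) and the removal of tumor replicate 1 (0.0892) or 2 (0.335). The second was lost without day 14 replicate 1 (0.112) or 2 (0.0630) and without tumor replicate 2 (0.152). The Col4a1 call against day 0 was lost in 2 of 14. Among the ganglia the direction of Col4a1 turned with the run: relative to replicates 3 to 5 it was 0.50 at day 7 and 0.57 at day 14 (adjusted p 0.0215 and 0.0104), relative to replicates 1 and 2 -0.51 and -0.45 (0.396 and 0.333).

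Laminin beta 1, laminin beta 2 and laminin gamma 1 were each beyond the ganglion range in the tumors. Lamb1 levels were 20.12, 19.36, 19.08, 18.71 and 18.85 at day 0, 19.66 and 19.59 at day 7, 19.09 and 19.33 at day 14, and 17.27 and 17.29 in the tumors. It fell by 1.94 log2 units (SE 0.29, adjusted p = 0.000208) against day 0 and changed by -1.93 (SE 0.35, adjusted p = 0.000855) against day 14, and every ganglion exceeded both tumors. Lamc1, the gamma chain of most laminins, measured 17.05, 16.57, 16.50, 16.34 and 16.44 at day 0, 16.87 and 16.85 at day 7, 16.47 and 16.65 at day 14, and 15.13 and 15.11 in the tumors. It changed by -1.46 (SE 0.20, adjusted p = 9.58e-05) against day 0 and by -1.44 (SE 0.24, adjusted p = 0.000439) against day 14. Both falls passed against either run of day 0 specimens (-2.46 and -1.60 for Lamb1, -1.69 and -1.31 for Lamc1) and in every alternative run. At day 7 Lamb1 was 0.74 relative to replicates 3 to 5 (adjusted p 0.00424) and -0.12 relative to replicates 1 and 2 (0.848).

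Lamb2 levels were 18.11, 17.06, 17.14, 16.77 and 16.76 at day 0, 17.95 and 18.26 at day 7, 18.26 and 18.32 at day 14, and 18.72 and 18.48 in the tumors. Day 0 replicate 1 reached the later ganglia, and the other day 0 arrays were lower than every later array. The tumors exceeded day 0 by 1.43 (SE 0.30, adjusted p = 0.00221), and day 14 ganglia already exceeded day 0 by 1.13 (SE 0.30, adjusted p = 0.0332). Tumors and day 14 ganglia differed by 0.31 (SE 0.36, adjusted p = 0.533). The day 14 rise was 0.71 against day 0 replicates 1 and 2 alone and was lost in 8 of 14 alternatives, among them each removal of a day 14 array (adjusted p 0.168 and 0.260) and of day 0 replicate 3, 4 or 5 (0.0636, 0.0555 and 0.0553). Lama4, an alpha chain of vascular laminins, changed by 0.26 (SE 0.31, adjusted p = 0.555) in the tumors.

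Type XV and XVIII collagens lie in the zone between basement membrane and stroma, and they moved in opposite directions as ganglia aged. Col15a1 levels were 15.01, 14.39, 15.29, 15.04 and 15.32 at day 0, 16.37 and 16.60 at day 7, 16.86 and 16.78 at day 14, and 15.62 and 15.34 in the tumors. All 4 later ganglia exceeded all day 0 arrays, by 1.48 (SE 0.24, adjusted p = 0.0115) at day 7 and 1.81 (SE 0.24, adjusted p = 0.00106) at day 14. The tumors lay between, -1.34 (SE 0.29, adjusted p = 0.00287) relative to day 14 and 0.47 (SE 0.24, adjusted p = 0.154) relative to day 0. The day 14 rise passed in every alternative, the day 7 rise not with a single day 7 array (adjusted p 0.0732 and 0.143). Col18a1, the source of endostatin, was lower at day 14, with a change of -0.92 (SE 0.23, adjusted p = 0.0270), and in the tumors, with -1.22 (SE 0.23, adjusted p = 0.00120); the day 14 call was lost with either day 14 array removed (adjusted p 0.215 and 0.181) and with the series table quantile normalized over all probes (0.0558).

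**Figure D2:**
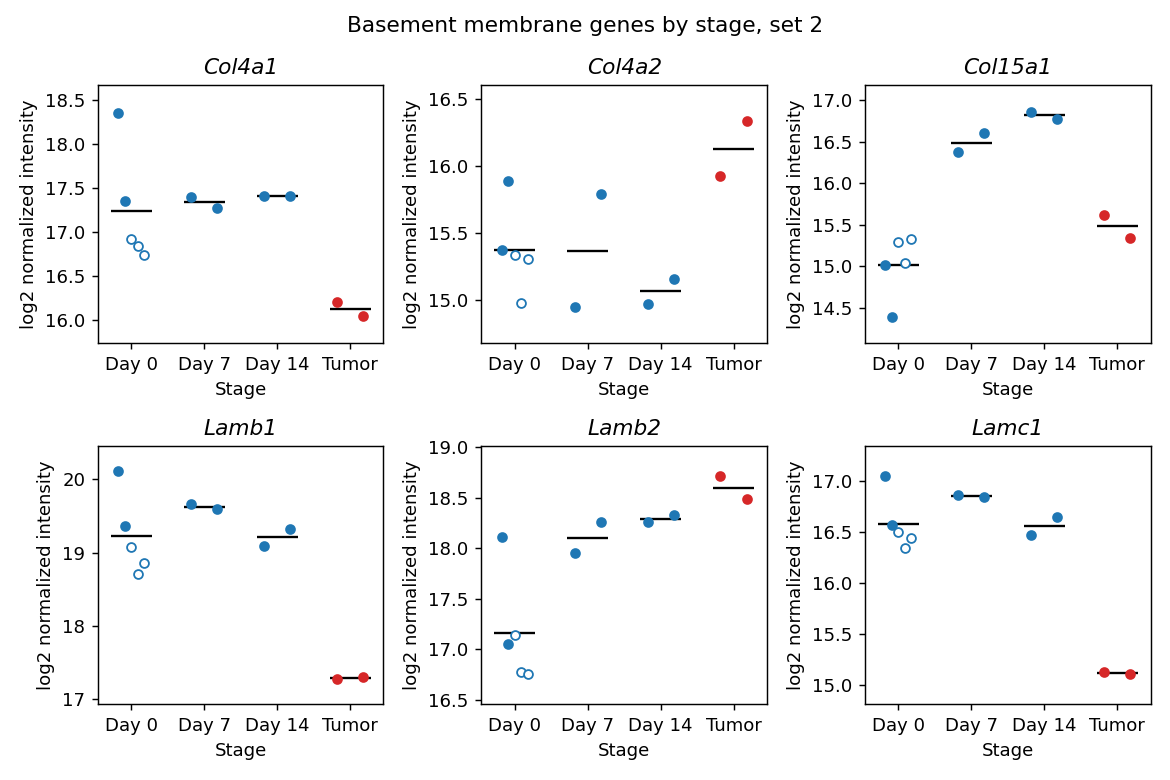
Log2 normalized intensity of 6 basement membrane genes in each array of set 2, by stage; points are arrays, black lines group means, open circles day 0 replicates 3 to 5, red points tumors. Col4a1, Lamb1 and Lamc1 are lowest in the tumors, Col4a2 and Lamb2 highest, and Col15a1 is highest at days 7 and 14. Vertical axes differ between panels and do not start at 0.

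Of the 9 fibril-forming collagens, 5 were lower in tumors than in day 0 ganglia (Col1a1, Col1a2, Col3a1, Col5a1 and Col11a1), none rose and 4 did not pass (Col2a1, Col5a2, Col5a3 and Col11a2). Among all probes 18.9% were lower and 18.4% higher. Col1a1 and Col1a2 encode the chains of type I collagen. Col1a1 levels were 15.20, 14.90, 15.16, 14.75 and 14.89 at day 0, 15.51 and 15.66 at day 7, 14.17 and 14.88 at day 14, and 14.27 and 14.32 in the tumors. Col1a2 levels were 21.28, 20.92, 21.06, 20.92 and 20.83 at day 0, 21.53 and 21.44 at day 7, 20.43 and 20.92 at day 14, and 19.91 and 19.91 in the tumors. Both were highest at day 7, where all arrays lay above day 0 without passing the test (0.60 (SE 0.23, adjusted p = 0.184) and 0.48 (SE 0.15, adjusted p = 0.126)). In the tumors Col1a1 fell by 0.69 log2 units (SE 0.23, adjusted p = 0.0312) and Col1a2 fell by 1.09 log2 units (SE 0.15, adjusted p = 0.000133) against day 0. The Col1a1 call was lost without day 0 replicate 3 (adjusted p 0.0660) without either tumor (0.171 and 0.137) and with the series table quantile normalized (0.0781), and against day 14 Col1a1 changed by -0.23 (SE 0.27, adjusted p = 0.547) with overlapping groups. Col1a2 was also below day 14, with a change of -0.76 (SE 0.18, adjusted p = 0.00567), a call lost without day 14 replicate 2 (adjusted p 0.0832) and with arrays centred on medians (0.139).

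Col3a1, the chain of type III collagen, measured 21.45, 21.31, 21.56, 21.58 and 21.65 at day 0, 21.62 and 21.16 at day 7, 21.17 and 20.53 at day 14, and 20.63 and 20.71 in the tumors. It was lower at day 14, with a change of -0.66 (SE 0.18, adjusted p = 0.0345), and in the tumors, with -0.84 (SE 0.18, adjusted p = 0.00238), and tumors and day 14 overlapped (-0.18 (SE 0.21, adjusted p = 0.534)). With arrays centred on their medians instead of quantile normalized, these changes were -1.29 and -1.41. The day 14 call rested on day 14 replicate 2, without which the change was -0.34 (adjusted p 0.482), and was also lost without day 0 replicate 3, 4 or 5 (0.0723, 0.0611 and 0.0578), against day 0 replicates 1 and 2 alone (-0.53, adjusted p 0.172), with the series table quantile normalized (0.0773) and without the intensity trend (0.0976). Col5a1, a chain of the type V collagen that initiates fibrils, measured 19.05, 18.55, 19.06, 18.71 and 18.65 at day 0, 19.05 and 19.15 at day 7, 18.27 and 18.34 at day 14, and 17.37 and 17.31 in the tumors. Tumors were below every ganglion, with changes of -1.46 (SE 0.16, adjusted p = 2.25e-05) against day 0 and -0.97 (SE 0.20, adjusted p = 0.00192) against day 14. Col11a1, a chain of type XI collagen, changed by -1.54 (SE 0.38, adjusted p = 0.00610) and -2.35 (SE 0.45, adjusted p = 0.00131) in the same comparisons; the first call was lost without tumor replicate 2 (adjusted p 0.0654) and with the series table quantile normalized (0.132).

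Type XIV and type XVI collagens sit on fibrils rather than forming them, and both were clearly lower in the tumors. Col14a1 levels were 18.02, 18.51, 18.46, 18.72 and 18.42 at day 0, 18.56 and 18.13 at day 7, 17.35 and 17.75 at day 14, and 16.59 and 16.61 in the tumors. They changed by -0.88 (SE 0.20, adjusted p = 0.0180) from day 0 to day 14 and by -1.83 (SE 0.20, adjusted p = 1.87e-05) from day 0 to the tumors, with no overlap between day 0, day 14 and tumors. The day 14 call was lost with either day 14 array removed (adjusted p 0.209 and 0.0884) and against day 0 replicates 1 and 2 alone (-0.72, adjusted p 0.0728); the tumor call was lost against day 14 without day 14 replicate 2 (0.0817). Col16a1 levels were 17.38, 16.77, 17.29, 17.02 and 17.17 at day 0, 17.27 and 17.30 at day 7, 17.44 and 17.34 at day 14, and 15.45 and 15.14 in the tumors. The 9 ganglia spanned 16.77 to 17.44, and both tumors lay below that span, with changes of -1.83 (SE 0.19, adjusted p = 9.82e-06) against day 0 and -2.10 (SE 0.22, adjusted p = 1.56e-05) against day 14. Both Col16a1 calls passed in every alternative.

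Of the remaining collagens, Col6a1, a chain of microfibrillar type VI collagen, fell by 0.72 log2 units (SE 0.19, adjusted p = 0.0102) against day 0, a call lost without either tumor (adjusted p 0.0569 and 0.103). Col6a2 changed by -0.68 (SE 0.33, adjusted p = 0.128). Col25a1, a transmembrane collagen of neurons, had a day 0 range of 19.22 to 19.64 and tumor levels of 19.57 and 19.48 and changed by 0.08 (SE 0.15, adjusted p = 0.712). Col4a6, the anchoring fibril collagen Col7a1 and the short-chain collagen Col8a1 of vessel walls did not pass in any comparison of set 2. Collagens as a family thus had 1 higher and 10 lower of 21 against day 0 and 1 higher and 7 lower against day 14. That is 52.4% and 38.1%, where 37.3% and 39.7% of all probes passed in either direction. Against day 0 replicates 1 and 2 alone the counts were 2 higher and 10 lower, and against replicates 3 to 5 alone 1 and 11, where 43.1% and 45.1% of all probes passed in either direction.

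Integrin subunits moved in both directions. Itga6, the alpha chain of laminin-binding integrins, measured 12.88, 13.33, 13.88, 14.59 and 13.50 at day 0, 12.95 and 12.96 at day 7, 13.92 and 14.20 at day 14, and 11.74 and 11.48 in the tumors. Both tumors lay below all ganglia, with changes of -2.02 (SE 0.38, adjusted p = 0.00105) against day 0 and -2.45 (SE 0.45, adjusted p = 0.000978) against day 14. Itga9, an alpha chain that binds tenascin C and osteopontin, measured 13.17, 11.21, 11.13, 12.02 and 11.15 at day 0, 12.25 and 12.18 at day 7, 11.55 and 12.32 at day 14, and 14.00 and 13.89 in the tumors. Both tumors lay above all ganglia, by 2.21 (SE 0.51, adjusted p = 0.00421) against day 0 and 2.01 (SE 0.61, adjusted p = 0.0193) against day 14; day 0 replicate 1 was the nearest ganglion. The call against day 14 was lost without day 14 replicate 1 (adjusted p 0.136) without either tumor (0.0942 and 0.0757) and with the series table quantile normalized (0.0796). Itga8, the alpha chain that pairs with beta 1 to bind nephronectin, was 1.18 (SE 0.40, adjusted p = 0.0351) relative to day 0, a call lost in 5 of 14 alternatives: without day 0 replicate 1 (0.0516), without either tumor (0.101 and 0.249), with the series table quantile normalized (0.121) and against day 0 replicates 3 to 5 alone. The Itga8 change was 0.87 (adjusted p 0.0633) against those replicates and 1.65 (0.0109) against replicates 1 and 2. Itga2b, the alpha chain of the platelet fibrinogen receptor, was 1.19 (SE 0.39, adjusted p = 0.0268) relative to day 14, a call lost without either day 14 array (0.156 and 0.0604), without tumor replicate 2 (0.215) and with the series table quantile normalized (0.0784).

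Itgb1, the beta chain shared by most matrix receptors, measured 17.75, 17.99, 17.54, 17.95 and 17.52 at day 0, 17.97 and 17.86 at day 7, 17.75 and 17.84 at day 14, and 17.39 and 17.55 in the tumors. Its groups overlapped against day 0, with a change of -0.28 (SE 0.17, adjusted p = 0.229). Itgam and Itgb7, subunits of leukocyte integrins, did not pass in any comparison of set 2; Itgam changed by -0.25 (SE 0.44, adjusted p = 0.699). Of the 7 integrin genes, 2 were higher and 1 lower against day 0, and 2 and 1 against day 14. That is 42.9% each time, near the 37.3% and 39.7% of all probes that passed. No member probe represents Itgav or Itga4. Of the 3 other genes caught by the name, Itgb1bp2, a muscle protein, changed by 1.20 (SE 0.62, adjusted p = 0.152) and Eif6, a ribosome assembly factor, by 0.15 (SE 0.27, adjusted p = 0.713). The Itgb1bp2 mean lay at percentile 0.51 of set 2, with 3 arrays at the floor. Itgb1bp1, a cytoplasmic partner of integrin beta 1, rose by 0.97 (SE 0.28, adjusted p = 0.0478) from day 0 to day 14, a call lost in 6 of 14 alternatives, among them each removal of a day 14 array (adjusted p 0.146 and 0.400) and of day 0 replicate 2 or 3 (0.0564 and 0.0855).

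The cadherins held the member with the greatest change of all 53. Cdh11, a classical cadherin of mesenchymal and glial cells, measured 16.63, 16.47, 17.47, 17.86 and 17.05 at day 0, 16.59 and 15.30 at day 7, 15.34 and 14.70 at day 14, and 12.83 and 12.55 in the tumors. It fell by 4.41 log2 units (SE 0.40, adjusted p = 3.74e-06) against day 0, or 21.2-fold, and the call passed in every alternative. It was already lower at day 14, with a change of -2.08 (SE 0.40, adjusted p = 0.00744) from day 0, and tumors changed by -2.33 (SE 0.48, adjusted p = 0.00201) relative to day 14. The day 0, day 14 and tumor levels did not overlap; without day 14 replicate 2 the day 14 fall had an adjusted p of 0.159.

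Cdh1, the epithelial cadherin, measured 15.88, 13.38, 14.06, 13.46 and 13.71 at day 0, 14.51 and 14.65 at day 7, 15.12 and 14.88 at day 14, and 11.70 and 10.72 in the tumors. Tumors were below all ganglia, with changes of -2.89 (SE 0.55, adjusted p = 0.00126) against day 0 and -3.79 (SE 0.66, adjusted p = 0.000675) against day 14, and both calls passed in every alternative. Day 0 replicate 1 was the highest of all arrays. Cdh22 measured 13.90, 13.77, 13.18, 12.38 and 13.46 at day 0, 14.34 and 14.28 at day 7, 12.09 and 12.33 at day 14, and 12.93 and 13.11 in the tumors. It was highest at day 7 and lowest at day 14, so that it passed the F test over stages (adjusted p = 0.0106) without passing in any comparison with all 5 day 0 arrays. Against replicates 1 and 2 alone Cdh22 passed at day 14 (-1.63, adjusted p 0.00433) and in the tumors (-0.82, 0.0220), and against replicates 3 to 5 alone at day 7 (1.30, 0.0111), where the tumor change was 0.01 (0.984). Cdh5, the cadherin of endothelial junctions, measured 11.24, 10.59, 9.78, 9.99 and 11.14 at day 0, 11.79 and 10.24 at day 7, 10.94 and 11.21 at day 14, and 10.39 and 9.87 in the tumors. It changed by -0.42 (SE 0.55, adjusted p = 0.596) and overlapped day 0. The Cdh5 mean lay at percentile 0.82 of set 2, with 1 array at the floor, so a fall had little room to show. The GPI-anchored Cdh13 differed by 1.72 between the 2 runs of day 0 specimens and changed by 0.69 (SE 0.59, adjusted p = 0.400); the tumor change was 1.38 against replicates 3 to 5 alone and -0.34 against replicates 1 and 2, so no direction can be given. No member probe represents Cdh2.

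**Figure D3:**
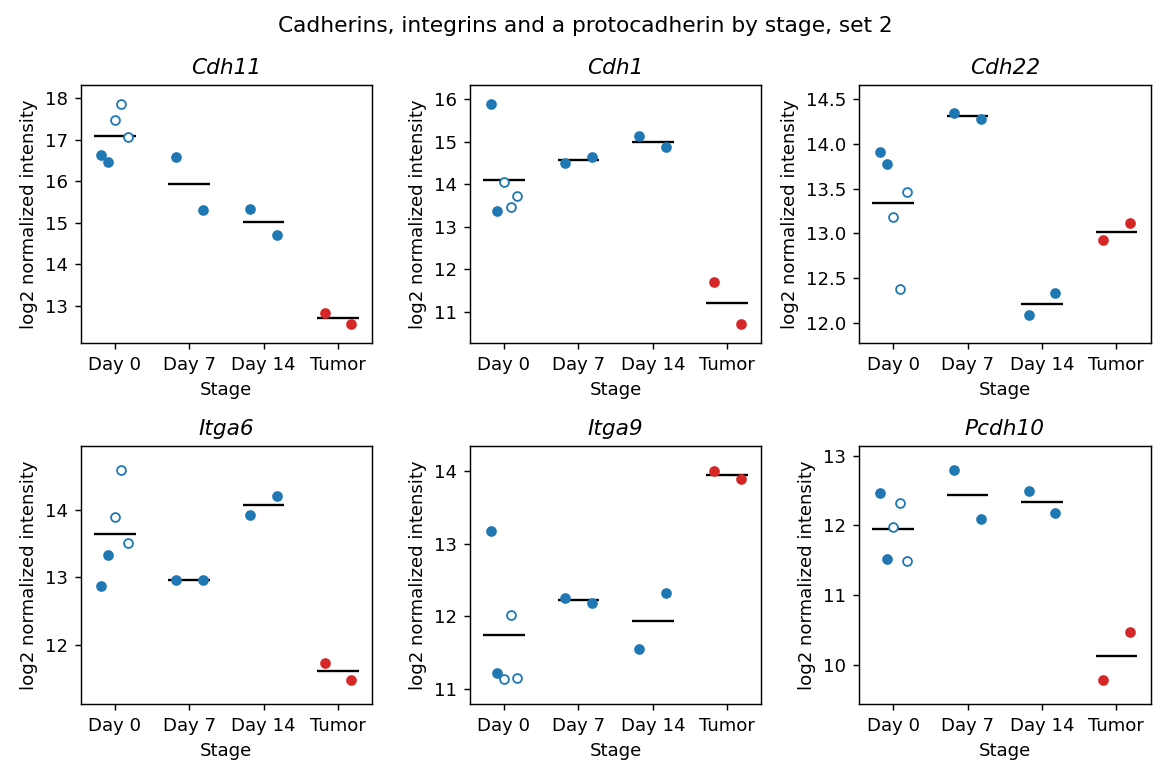
Log2 normalized intensity of 3 cadherins, 2 integrin alpha chains and Pcdh10 in each array of set 2, by stage; points are arrays, black lines group means, open circles day 0 replicates 3 to 5, red points tumors. Cdh11, Cdh1, Itga6 and Pcdh10 are lowest and Itga9 highest in the tumors, while Cdh22 is highest at day 7. Vertical axes differ between panels and do not start at 0.

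The protocadherins comprised 11 genes of the beta cluster and the non-clustered Pcdh10 and Pcdh20. The beta genes lie side by side on chromosome 18 and are close in sequence, so one probe may read several of them and the 11 are not independent. In tumors against day 0, 6 of the 11 were lower and none higher, with a median change of -1.01. Among all probes 18.9% were lower and 18.4% higher. Pcdhb21 levels were 14.82, 14.68, 15.11, 14.72 and 14.88 at day 0, 14.58 and 14.70 at day 7, 14.53 and 14.59 at day 14, and 13.68 and 13.60 in the tumors. Pcdhb22 levels were 15.76, 15.96, 16.19, 16.20 and 15.95 at day 0, 15.65 and 15.99 at day 7, 15.41 and 15.58 at day 14, and 15.09 and 14.92 in the tumors. For both genes each tumor lay below every ganglion, and the changes against day 0 were -1.21 (SE 0.20, adjusted p = 0.000378) and -1.01 (SE 0.19, adjusted p = 0.00119). Pcdhb20 levels were 11.23, 11.56, 12.42, 12.93 and 11.76 at day 0, 10.37 and 10.56 at day 7, 10.99 and 11.51 at day 14, and 9.78 and 9.78 in the tumors. Both tumors were at the floor, so its change of -2.20 (SE 0.47, adjusted p = 0.00256) against day 0 is a bound; it was -3.51 with no floor and -1.12 with a floor at the 5th percentile. Pcdhb3, Pcdhb7 and Pcdhb17 also fell, with changes of -1.54, -1.36 and -0.90; Pcdhb3 lost its call without tumor replicate 2 (adjusted p 0.0853), and Pcdhb17 overlapped day 0 and lost its call in 7 of 14 alternatives, among them day 0 replicates 1 and 2 alone (-0.43), the removal of day 0 replicate 3 (0.0569), 4 (0.0513) or 5 (0.0517) and of either tumor (0.0793 and 0.234).

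The beta cluster also divided the day 0 specimens. All 11 beta genes were lower in day 0 replicates 1 and 2 than in replicates 3 to 5, with a median difference of -0.79, against 0.02 over all probes. All 11 were lower at day 7 than at day 0 and none passed; against replicates 3 to 5 alone 5 passed, and against replicates 1 and 2 alone none did and 8 of 11 were lower. For the tumors, 5 were lower and 1 higher (Pcdhb10) against replicates 1 and 2, and 7 were lower against replicates 3 to 5. At day 14 the direction turned with the run: 3 were higher and none lower against replicates 1 and 2, with a median change of 0.10, and none higher and 2 lower against replicates 3 to 5, with a median of -0.35. Of all probes, 2.44% passed at day 7, 10.7% at day 14 and 43.1% in the tumors against replicates 1 and 2 alone. The shares against replicates 3 to 5 alone were 24.8%, 27.6% and 45.1%, in either direction. Whether the changes differed between the runs was not tested. Pcdh10, a delta protocadherin, measured 12.46, 11.52, 11.98, 12.32 and 11.48 at day 0, 12.79 and 12.09 at day 7, 12.49 and 12.18 at day 14, and 9.78 and 10.46 in the tumors. It changed by -1.83 (SE 0.39, adjusted p = 0.00274) against day 0 and -2.22 (SE 0.47, adjusted p = 0.00252) against day 14, with tumor replicate 1 at the floor; without that array the adjusted p against day 0 was 0.0571, and with a floor at the 5th percentile the change was -1.09. Pcdh20 changed by 0.58 (SE 0.38, adjusted p = 0.261).

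**Figure D4:**
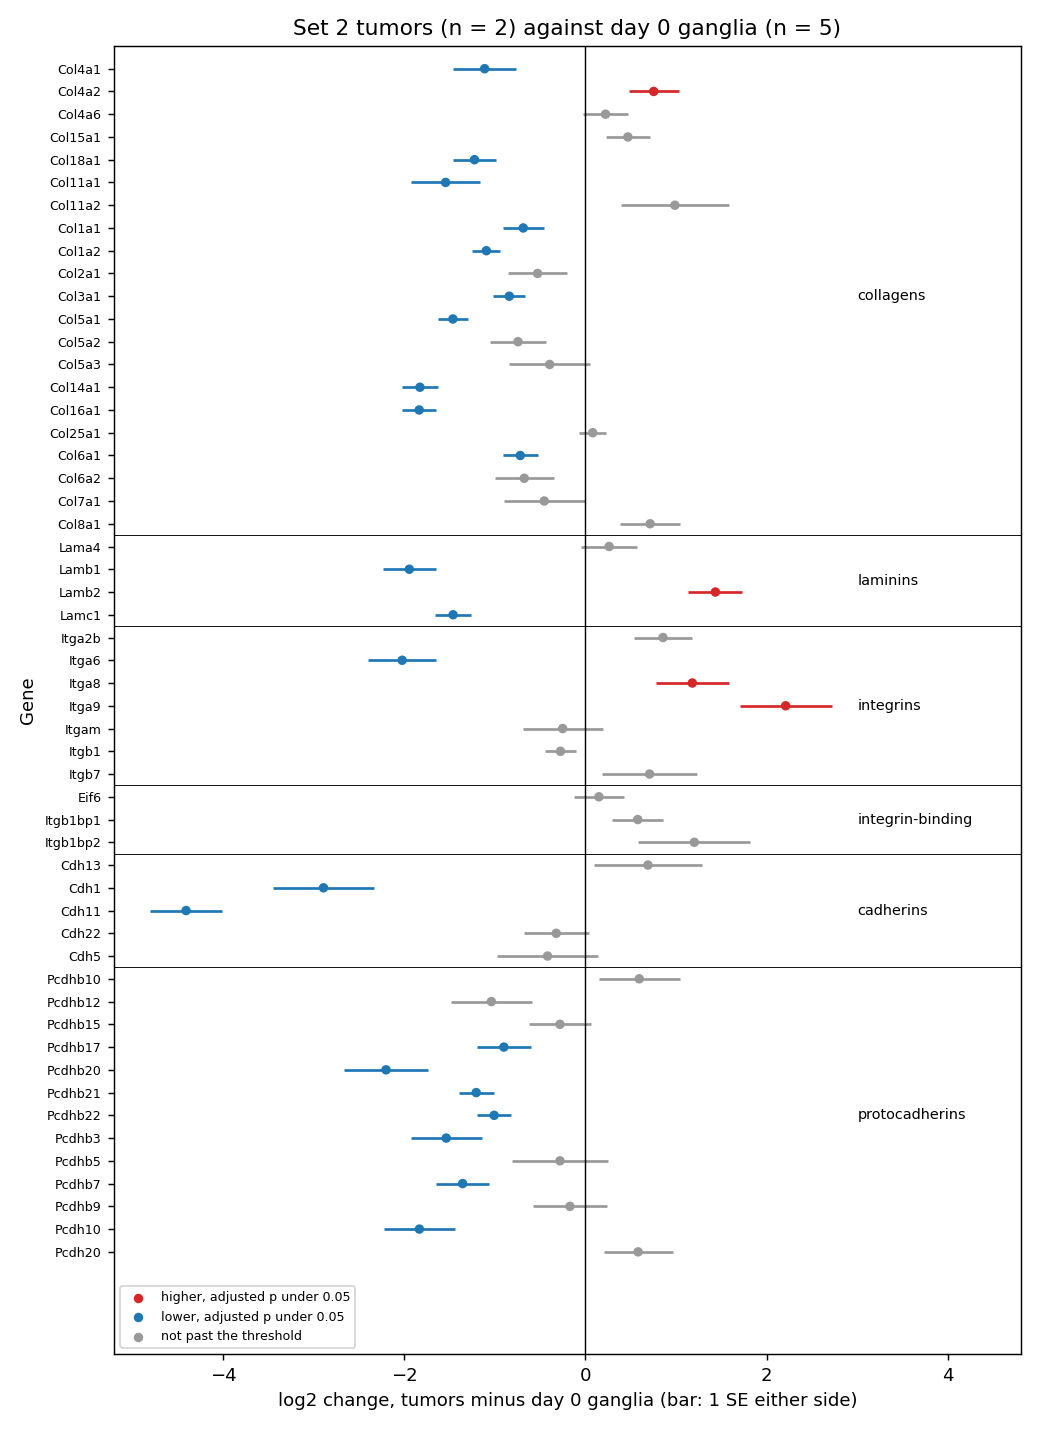
Log2 change of each member probe in the 2 tumors of set 2 relative to the 5 day 0 ganglia, with bars of 1 SE either side, by family; red is higher and blue lower at an adjusted p under 0.05, grey did not pass. The blue points outnumber the red ones (22 against 4), and Cdh11 lies farthest from 0 at -4.41. The Pcdhb20 point is a bound, since both tumors are at the floor.

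Genes that act with the members were read from pathway lists in the same fit. These lists were chosen with earlier results of these data known. Beside the counts below, 18.4% of all probes were higher and 18.9% lower in tumors than in day 0 ganglia. Of 17 collagen-processing genes, 1 was higher and 10 lower in tumors than in day 0 ganglia, among them Plod1, a lysyl hydroxylase (-1.92 (SE 0.27, adjusted p = 0.000132)), Ppib, a prolyl isomerase (-0.67 (SE 0.14, adjusted p = 0.00257)), and P4ha2, a prolyl hydroxylase subunit (-0.80 (SE 0.18, adjusted p = 0.00382)). Of 6 basement membrane partners 2 were lower, Nid2, which links laminin to collagen IV (-2.94 (SE 0.22, adjusted p = 9.64e-07)), and Sparc (-0.71 (SE 0.16, adjusted p = 0.00345)). Of 8 other matrix proteins 5 were lower and 1 higher. Tnc, tenascin C, changed by -3.43 (SE 0.23, adjusted p = 3.29e-07) and Fbn2, a fibrillin, by -1.88 (SE 0.28, adjusted p = 0.000187), whereas Spp1, osteopontin, which falls outside the rule for named genes and was picked after its value was seen, was 3.69 (SE 0.62, adjusted p = 0.000501). Of 10 proteases and inhibitors 6 were lower and 1 higher, with Mmp15 at -2.96 (SE 0.29, adjusted p = 7.80e-06), Mmp2 at -3.41 (SE 0.34, adjusted p = 7.84e-06) and Mmp11 at -2.09 (SE 0.24, adjusted p = 2.29e-05).

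Inside the cell, 5 of 10 integrin adaptors were lower and none higher, led by Fermt2 (-1.52 (SE 0.20, adjusted p = 6.21e-05)), a kindlin that activates integrins, Parva (-1.84 (SE 0.24, adjusted p = 8.45e-05)) and Pxn, paxillin (-1.14 (SE 0.20, adjusted p = 0.000746)). Of 5 cadherin partners 4 were lower, including Ctnna2, an alpha catenin (-1.85 (SE 0.20, adjusted p = 1.98e-05)), Ctnnd2, a delta catenin (-1.93 (SE 0.29, adjusted p = 0.000202)), and Celsr1, an atypical cadherin (-2.05 (SE 0.40, adjusted p = 0.00139)). Against day 0, 18.9% of all probes were lower. The median changes of the lists lay between -0.35 (integrin adaptors) and -1.85 (cadherin partners), against 0.01 over all probes. Relative to day 14 ganglia, 9 of 17 collagen-processing genes, 3 of 6 basement membrane partners, 3 of 8 other matrix proteins, 6 of 10 proteases and inhibitors, 5 of 10 adaptors and 3 of 5 cadherin partners were lower, where 19.9% of all probes were. In that comparison 1 other matrix protein was higher, Spp1 (3.59 (SE 0.74, adjusted p = 0.00211)), and 1 of the proteases and inhibitors, the metalloprotease inhibitor Timp1 (1.79 (SE 0.58, adjusted p = 0.0269)), which was named after its value was seen and lay at the floor on 1 array of set 2.

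Markers of the cells that make these proteins were read at the same stages. In tumors against day 0, 18.4% of all probes were higher and 18.9% lower. At day 14 against day 0 the shares were 5.56% and 4.63%. The summed level of 7 Schwann cell and satellite glia markers was 20.65 to 21.58 at day 0, 21.82 to 21.93 at day 14 and 18.25 to 18.38 in the tumors. In the tumors 3 of these markers were lower and none higher against day 0. For 7 fibroblast markers the summed level was 20.33 to 21.17 at day 0, 21.497 to 21.685 at day 14 and 19.45 to 19.55 in the tumors. Against day 0, 1 fibroblast marker was higher and 2 lower at day 14, and 3 were lower in the tumors. Tumors were higher for 10 macrophage markers (18.06 to 18.65 at day 0, 20.87 in both tumors, 8 higher), 5 adipocyte markers (16.98 to 19.02 and 21.89 to 22.15, 4 higher) and 7 skeletal muscle markers (19.75 to 20.53 and 21.56 to 21.63, 6 higher and 1 lower). The 10 endothelial markers overlapped (16.61 to 18.23 and 17.77 to 17.81, 1 higher), and pericyte and smooth muscle markers were 16.31 to 17.13 and 17.48 to 17.52 (2 higher and 2 lower of 7). Of 11 neuronal markers 9 were lower, of 10 noradrenergic markers 7, and of 2 lymphocyte markers 1. The part of these markers in the member results was not tested.

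With tumor size, few members differed. Medium and small tumors differed in none of the 53 by limma at the adjusted threshold (6 at an unadjusted p under 0.05; 0.961% of all probes passed; 1 member passed without medium replicate 1). Large and small tumors differed in 1 (1.89%, against 2.31% of all probes) and very large and small tumors in 3 (5.66%, against 4.69%), 2 higher and 1 lower (2.25% and 2.45% of all probes). A regression on log10 weight over the 24 tumors passed for 4 members (7.55%, against 5.59%), and the F test over classes for 2 (3.77%, against 2.25%). These shares are near the background. The class F count was 0 without small replicate 2, 4, 5 or 6, and 1 without medium replicate 2 or 6, large replicate 1 or 5, or very large replicate 3, 5 or 6. The large against small count was 2 without small replicate 1 and 0 without small replicate 2, 4, 5 or 6 or large replicate 2, 4 or 6, and the very large against small count was 5 without very large replicate 1.

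Col16a1 was lower in larger tumors. Its levels, as the lowest, the median and the highest array, were 14.13, 14.51 and 14.80 in small tumors, 12.46, 13.68 and 14.42 in medium tumors, 12.59, 13.57 and 13.98 in large tumors, and 12.62, 13.08 and 13.99 in very large tumors. Every large and every very large tumor lay below every small one, with changes of -1.05 (SE 0.28, adjusted p = 0.0392) and -1.32 (SE 0.28, adjusted p = 0.00518). Per 10-fold increase in weight it changed by -0.91 (SE 0.18, adjusted p = 0.00242). The very large and weight calls held in all alternatives but life span as a covariate (adjusted p 0.110 and 0.0897). The large against small call was lost in 12 of 19 alternatives, among them the removal of small replicate 2, 3, 4, 5 or 6 or of large replicate 2, 4 or 6, with adjusted p up to 0.108 over these.

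Lama4 was higher in larger tumors, at 11.05, 11.67 and 12.02 in small tumors, 11.57, 11.89 and 12.70 in medium tumors, 11.79, 12.36 and 12.56 in large tumors, and 12.23, 12.52 and 13.10 in very large tumors. Every very large tumor lay above every small one, by 0.98 (SE 0.21, adjusted p = 0.00718), and the slope was 0.64 (SE 0.14, adjusted p = 0.00622) per 10-fold weight. Without normalization between arrays the difference was 0.46 (adjusted p 0.537), with arrays centred on medians 0.73 (0.0549) and with life span as a covariate 1.06 (0.0692). Lamb1 measured 14.25, 14.51 and 14.57 in small tumors, 14.35, 14.59 and 14.75 in medium tumors, 14.22, 14.50 and 14.87 in large tumors, and 14.46, 15.00 and 15.31 in very large tumors. It was 0.47 (SE 0.14, adjusted p = 0.0409) in very large against small tumors with overlapping groups, and the call was lost in 13 of 19 alternatives, among them the removal of any of small replicates 2 to 6 or very large replicates 2 to 5 (adjusted p 0.0554 to 0.110), and the difference was 0.00 without normalization.

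Col4a1 and Col5a2 passed for weight alone. Col4a1 measured 15.35, 16.06 and 16.24 in small tumors, 15.63, 16.05 and 16.20 in medium tumors, 15.81, 16.34 and 17.14 in large tumors, and 16.18, 16.33 and 16.98 in very large tumors. Its slope was 0.41 (SE 0.12, adjusted p = 0.0378) per 10-fold weight, and 0.10 without normalization. Col5a2, the second chain of type V collagen, measured 14.89, 15.19 and 15.54 in small tumors, 13.89, 14.85 and 15.47 in medium tumors, 14.26, 14.49 and 15.01 in large tumors, and 13.54, 14.53 and 15.16 in very large tumors, with a slope of -0.55 (SE 0.15, adjusted p = 0.0302). Each was lost in 9 of 31 alternatives: for Col4a1 these included the removal of small replicate 4 (adjusted p 0.155) or 5 (0.0691) or of very large replicate 2 (0.0702), 3 (0.0565) or 5 (0.0896), and for Col5a2 of small replicate 2 (0.0658), 3 (0.0559), 4 (0.0727) or 6 (0.0531) or of very large replicate 4 (0.0796) or 5 (0.0821). Leaving out very large replicate 5 left 2 members past the threshold for weight, as did leaving out small replicate 4. Within set 2 Col4a1 was lower in small tumors than in ganglia, and within set 1 it was higher in heavier tumors; the scales of the sets differ, so these levels cannot be joined.

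**Figure D5:**
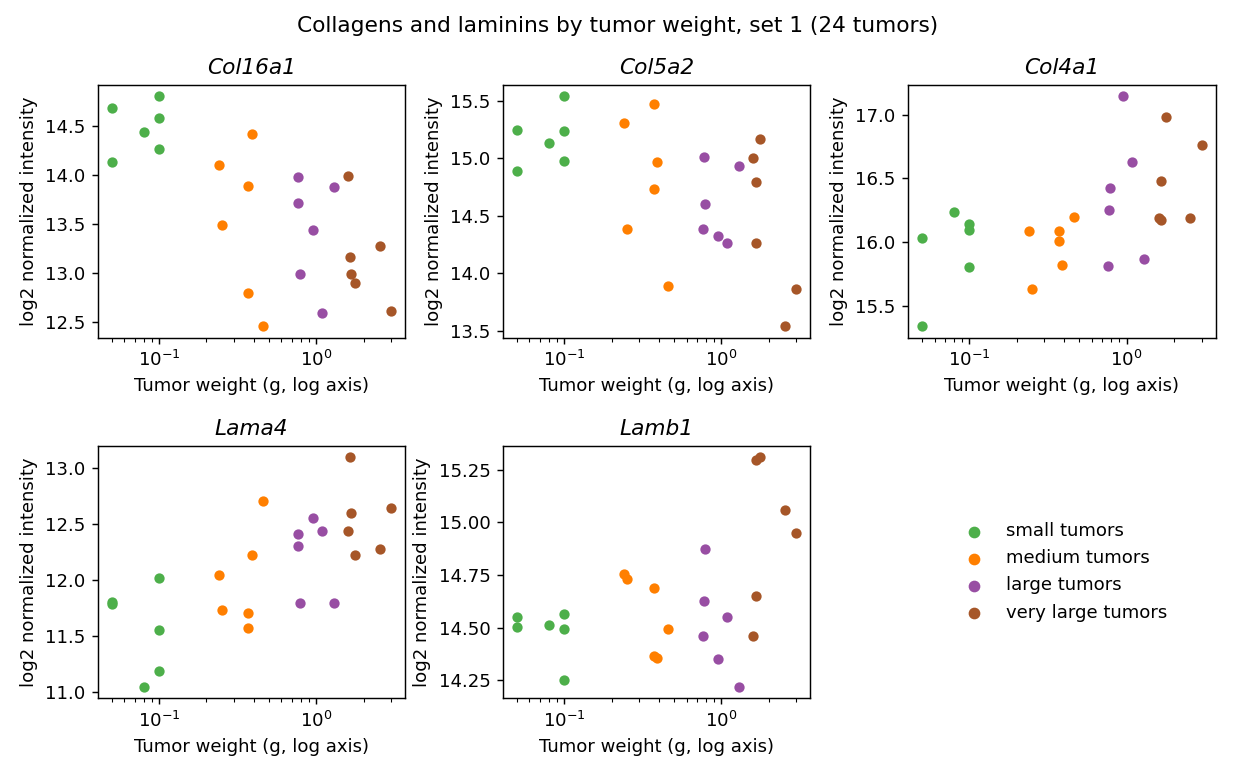
Log2 normalized intensity of 5 members against tumor weight in grams (log axis) in the 24 tumors of set 1, coloured by size class; each point is a tumor. Col16a1 and Col5a2 are lower and Lama4 and Col4a1 higher in heavier tumors, and the 4 highest Lamb1 values are in very large tumors. Vertical axes differ between panels and do not start at 0.

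Of the other members with values fixed for description, Col4a2 measured 13.84, 14.37 and 14.52 in small tumors, 14.14, 14.32 and 14.55 in medium tumors, 13.91, 14.34 and 14.55 in large tumors, and 14.28, 14.47 and 14.88 in very large tumors, and very large and small tumors differed by 0.26 (SE 0.14, adjusted p = 0.347). Col1a1 ran from 14.07 to 16.64 among small tumors alone and differed by 0.14 (SE 0.39, adjusted p = 0.898), Col1a2 by 0.12 (SE 0.23, adjusted p = 0.848), and Col3a1 by -0.59 (SE 0.27, adjusted p = 0.243). Lamc1 differed by -0.24 (SE 0.22, adjusted p = 0.646), Itgb1 by -0.27 (SE 0.11, adjusted p = 0.166), Cdh5 by 0.61 (SE 0.41, adjusted p = 0.481) and Cdh11 by -0.76 (SE 0.38, adjusted p = 0.301). None passed, and size classes overlapped for each. In the pathway lists 1 of 6 basement membrane partners (Fras1, -1.67 (SE 0.30, adjusted p = 0.00165)) and 3 of 10 proteases and inhibitors (Timp2, -1.14 (SE 0.22, adjusted p = 0.00254), Mmp2, -1.44 (SE 0.30, adjusted p = 0.00511), and Plat, -1.20 (SE 0.27, adjusted p = 0.00960)) were lower in very large than in small tumors. Loxl2 was the 1 higher of 17 collagen-processing genes (0.82 (SE 0.24, adjusted p = 0.0416)), and of 8 other matrix proteins Fbln2 was higher (0.79 (SE 0.17, adjusted p = 0.00692)) and Tnc and Postn lower. None of the 10 adaptors or 5 cadherin partners passed. In very large against small tumors 2.25% of all probes were higher and 2.45% lower.

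Beside the size results, the summed level of the 7 fibroblast markers was 16.57 to 18.34 in small and 14.50 to 16.54 in very large tumors (1 higher and 3 lower), that of the 7 Schwann cell and satellite glia markers 15.64 to 17.03 and 14.22 to 15.18 (3 lower), and that of the 7 skeletal muscle markers 14.71 to 21.83 and 13.66 to 19.98 (4 lower). Adipocyte markers were 16.72 to 21.09 and 16.72 to 18.53 (1 lower of 5). Endothelial markers were 15.38 to 16.77 and 15.96 to 16.66, with none of 10 called. None of 10 macrophage, 7 pericyte and smooth muscle or 2 lymphocyte markers was called, and of 11 neuronal and 10 noradrenergic markers 1 was higher in each list and 3 and 4 were lower. Among all probes 2.25% were higher and 2.45% lower in very large than in small tumors. The part of these markers in the Col16a1 and Lama4 differences was not tested.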

How the data were processed

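RNA from 10 µm frozen sections was hybridised as digoxigenin-labelled cDNA to single-colour ABI arrays, per the labels' protocols. The deposited values are intensities in 2 tables. The series table (33012 probes) holds intensities that were not on a common scale across set 1 (array medians 557.79 to 1292.165). The ganglia table (12688 probes, 11 arrays) holds intensities that the authors quantile normalized, per the deposited readme; its sorted columns were identical and its ranks matched the series table. The probe selection and scanner software were not given in the sources used here. The number of arrays, not depth, limits precision.

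Set 1 was quantile normalized here (32996 probes, 16 with a missing value dropped). Values were raised to the 1st percentile of the set and log2 transformed. Groups were taken from the labels. Comparisons were fitted with limma 3.58.1 in R 4.3.3 (lmFit, eBayes with intensity trend), 1 fit per set, with two-sided tests and Benjamini-Hochberg adjustment over all probes at 0.05; the fit was tested on simulated data. Tumor weight entered as log10. Motifs were searched and figures drawn in Python 3.11.15.

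Members and lists were chosen with earlier results of these data known. Every member could be named. Values in every array were given for up to 4 probes per family by smallest F p in each set among those past the threshold, and for 12 preset genes where present. List genes were named by smallest p, up to 3 per list and comparison. Lists covered collagen processing, basement membrane partners, other matrix proteins, matrix proteases and inhibitors, integrin adaptors and cadherin partners, and markers of endothelial cells, pericytes and smooth muscle, fibroblasts, Schwann cells and satellite glia, macrophages, lymphocytes, skeletal muscle, adipocytes, noradrenergic cells and neurons. One gene of the noradrenergic list is not reported here, and the list was summarised without it. Alternatives covered normalization, the floor, the variance prior, the probes tested, life span as a covariate, each run of day 0 specimens, and each array left out.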

Additional observations from a re-analysis of the deposited data

Results flagged for a closer look

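In groups of 4 to 10 arrays, 16 values stood apart from the rest of their group by Dixon's ratio, of 265 member and group combinations examined; chance flags about 1 in 20, or 13.2 here. Small tumor replicate 1 held 5 of them: Col11a1 at 8.02 (other small tumors 9.93 to 10.84), Lamc1 at 12.54 (13.10 to 13.32), Pcdhb10 at 10.44 (11.09 to 11.46), Pcdhb20 at 8.15 (10.42 to 11.47) and Pcdhb22 at 11.35 (11.98 to 12.26) were each the lowest of the 6. The summed skeletal muscle marker level of that tumor was 21.70, in a range of 14.71 to 21.83 over small tumors. Its macrophage and adipocyte levels also lay within the range of the others. It had the lowest fibroblast (16.57), Schwann cell and satellite glia (15.64), noradrenergic (20.72) and neuronal (21.48) levels of the 6. It had the highest endothelial (16.77), pericyte and smooth muscle (17.33) and lymphocyte (16.22) levels. The part of these markers was not tested. Lamb1 was low in small replicate 5 at 14.25 (14.49 to 14.57 in the others).

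Col25a1 was low in large replicate 6 at 17.18 (18.61 to 18.72). Itga6 was low in large replicate 4 at 9.05 (11.38 to 11.79) and in very large replicate 5 at 10.38 (11.59 to 11.82). Col5a1 at 16.18 (14.88 to 15.21) and Col6a2 at 13.13 (12.11 to 12.42) were high in very large replicate 2. Eif6 was high in very large replicate 4 at 17.05 (16.50 to 16.69), and Pcdhb15 was low in very large replicate 3 at 10.22 (10.85 to 11.17).

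Among day 0 ganglia, Lamb2 at 18.11 (16.76 to 17.14) and Cdh1 at 15.88 (13.38 to 14.06) were high in replicate 1, and Col11a2 was high in replicate 5 at 11.86 (9.78, the floor, to 10.05).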

How the results depend on the processing

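No paired analysis was possible because specimen names give the groups no shared replicate numbers. No member call reversed in direction under the alternatives run. Changes of members that were not called did, such as that of Cdh13 in the tumors, which was 1.38 against day 0 replicates 3 to 5 alone and -0.34 against replicates 1 and 2. Of the 26 calls in tumors against day 0 ganglia 17 passed in every alternative, of the 19 against day 14 ganglia 10, of the 7 at day 14 against day 0 1, and of those at day 7 or with tumor size none.

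The day 14 count of 7 became 3 with the series table quantile normalized over all probes and 13 against day 0 replicates 3 to 5 alone, and the day 7 count of 1 became 16 against those replicates. With arrays centred on medians the counts were 1 for the size F test, 0 for large and 1 for very large against small tumors. With no normalization they were 0, 0 and 1, and 1 for weight. Without the intensity trend they were 0 for the F test, 0 for large against small and 2 for weight. With life span as a covariate they were 0 for the F test, 0 for large, 0 for very large and 1 for weight, a gene not among the 4. With only the ganglia table's probes very large against small gave 5. The causes were not tested.

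With 1 array left out the counts ranged from 18 to 28 for tumors against day 0, 12 to 16 against day 14, 1 to 10 for day 14, 0 to 6 for day 7 and 21 to 30 for the stage F test. For size they ranged from 0 to 1 (medium), 0 to 2 (large), 2 to 5 (very large), 0 to 2 (F test) and 2 to 5 (weight). A lone array left in a group was assumed to vary like the other groups. Groups of 2 limit every ganglion comparison.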

Other observations

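A pair of probes that carry several protocadherin symbols fell outside the name rule. The alpha-cluster probe, listed with 10 gene symbols, measured 18.21, 18.04, 18.97, 18.88 and 18.79 at day 0, 18.15 and 17.74 at day 7, 18.32 and 18.21 at day 14, and 15.82 and 15.76 in the tumors. Tumors changed by -2.79 (SE 0.25, limma adjusted p = 3.14e-06) relative to day 0 and by -2.48 (SE 0.30, adjusted p = 3.88e-05) relative to day 14. In set 1 this probe changed by -0.49 per 10-fold weight (SE 0.13, adjusted p = 0.0197). The gamma-cluster probe, listed with 21 symbols, measured 13.44 and 13.56 in day 0 replicates 1 and 2 and 11.47, 11.72 and 10.54 in replicates 3 to 5, and the tumors, at 12.85 and 11.63, changed by 0.09 (SE 0.70, adjusted p = 0.935). Between the runs of day 0 specimens the gamma probe therefore stood the opposite way to the 11 beta genes.

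By specimen name 2 tumors are present in both sets, and the difference between them was read in each. Over the 53 members, the difference between small replicates 6 and 3 of set 1 had a Pearson r of 0.28 with the difference between the same tumors in set 2, and 30 of 53 had the same sign. The median absolute difference between the tumors was 0.25 in set 1 and 0.19 in set 2. The summed skeletal muscle marker level was 21.03 in replicate 6 and 14.71 in replicate 3 of set 1. In set 2 it was 21.63 and 21.56 for the same specimen names. Why the sets differed there was not tested. Genes are not independent, and the sets were normalized separately, so these values are a description.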
